A study of Rattus norvegicus with 31 samples.

Results

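Voltage-gated potassium (Kv) channels repolarise a motor neuron after each spike, and the Kv2, Kv3 and silent Kv9 subunits set how fast and how completely this happens. In rat tail motor neurons after spinal cord transection, 6 genes of these families were followed: Kcnb2 (Kv2.2), Kcnc1 (Kv3.1), Kcnc2 (Kv3.2), Kcns1 (Kv9.1), Kcns2 (Kv9.2) and Kcns3 (Kv9.3). They were measured by all probe sets that carry 1 of these 6 symbols, and no other, in the platform annotation. This gave 9 probe sets of 6 genes, 4 of the probe sets being for Kcnc2. In all, 12913 probe sets were tested, and 9769 genes had a probe set with a single symbol.

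The samples were motor neurons that innervate the tail, labelled backwards with Fluoro-Gold given into muscle and into the peritoneal cavity, taken by laser from sections of the sacral cord and amplified in 2 rounds before hybridisation. All animals were adult male Wistar rats. Control rats were not injured (4 animals, day 0), and Spi-2 (6 animals), Spi-7 (5 animals), Spi-21 (8 animals) and Spi-60 (8 animals) were taken 2, 7, 21 and 60 days after complete transection of the cord at the S2 segment, which paralyses the tail. Each of the 31 arrays held the RNA of 1 animal, so the spread within a group is the spread between animals. The 15 arrays up to day 7 belong to the present study and the 16 later ones to an earlier study, so study and late time cannot be told apart in any comparison of Spi-21 or Spi-60 with Control.

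Kv3 channels open only at strongly depolarised voltages and close very fast, which keeps spikes short and lets neurons fire at high rates. Kv2 channels carry a slower delayed rectifier current, which shapes repolarisation during repeated firing. Silent Kv9 subunits form no channel alone but join Kv2 subunits in mixed channels and change their gating and surface level.

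Kcnc1, Kcns3 and 1 of the 4 probe sets of Kcnc2 were lower after transection in at least 1 comparison, and the promoters of these genes are shown because their levels are what the results turn on. RefSeq windows on the rat build GRCr8 were held for 4 of the 6 genes (Kcnc1, Kcnc2, Kcns1 and Kcns3). The 250 bases before the start farthest upstream lie at chr1:106038997-106039246 on the plus strand for Kcnc1, at chr7:49587364-49587613 on the plus strand for Kcnc2 and at chr6:39584106-39584355 on the minus strand for Kcns3. Capitals mark matches to GGGCGG, the GC box bound by Sp1, on either strand.
Kcnc1: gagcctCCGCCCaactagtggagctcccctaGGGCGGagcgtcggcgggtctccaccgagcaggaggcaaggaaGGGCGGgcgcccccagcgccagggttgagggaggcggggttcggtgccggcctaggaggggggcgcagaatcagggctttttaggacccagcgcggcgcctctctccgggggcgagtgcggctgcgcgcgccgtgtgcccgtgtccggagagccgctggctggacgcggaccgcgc
Kcnc2: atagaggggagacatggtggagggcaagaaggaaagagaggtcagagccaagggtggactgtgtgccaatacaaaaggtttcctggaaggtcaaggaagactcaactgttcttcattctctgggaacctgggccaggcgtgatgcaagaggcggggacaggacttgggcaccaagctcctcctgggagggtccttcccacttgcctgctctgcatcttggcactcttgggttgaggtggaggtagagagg
Kcns3: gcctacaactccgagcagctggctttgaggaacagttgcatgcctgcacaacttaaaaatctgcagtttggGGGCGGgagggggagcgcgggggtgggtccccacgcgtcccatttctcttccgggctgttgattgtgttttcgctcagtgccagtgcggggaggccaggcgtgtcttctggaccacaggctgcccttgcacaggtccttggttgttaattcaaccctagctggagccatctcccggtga
The Kcnc1 window held 3 GC boxes, the Kcns3 window 1 and the Kcnc2 window 0, whereas 30.5% of all 33469 RefSeq windows of this length held at least 1. The second Kcns3 start had 2 GC boxes and the Kcns1 window had 1. The Zeb1 E-box CACCTG (in 15.9% of all windows), the Foxo site TGTTTAC (3.21%) and the cAMP response element TGACGTCA (1.59%), searched on both strands and none of them overlapping the GC box motif, had no match in any of the members' windows. These matches describe the letters in the windows and no binding was measured.

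The deposited values are RMA summaries on the log2 scale, so a difference of 1 is a doubling. Array medians lay between 5.95 and 6.10. The mean of Kcnc1 over all arrays lay at percentile 89.0 of all probe sets, that of Kcns3 at percentile 82.1 and that of the Kcnc2 probe set 1370439_a_at at percentile 59.7. The other 6 probe sets lay between percentile 0.387 (Kcnc2 1370558_a_at) and percentile 34.6 (Kcnb2). The table holds no detection calls, so no signal of these 6 was shown to stand above background, and a probe set's level depends on its probes as well as on its transcript.

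Over the 5 groups, 2 of the 9 probe sets passed the F-test at an FDR of 0.02, Kcnc2 1370439_a_at (adjusted p = 0.00519, limma) and Kcns3 (adjusted p = 0.00633, limma), against 16.2% of all probe sets. Neither passed when Control replicate 1 was left out (adjusted p 0.0226 for Kcnc2 1370439_a_at and 0.0255 for Kcns3) or Control replicate 3 (0.0282 and 0.0243), so that 0 of the 9 passed in these limma fits. Kcnc1 had an adjusted p of 0.0562 and Kcnc2 1370558_a_at one of 0.0511 in the same limma test. The median log2 fold change of the 9 probe sets against Control was -0.08, -0.12, 0.08 and 0.04 at days 2, 7, 21 and 60, beside medians between 0.00 and 0.01 in size over all probe sets. The plot of single animals shows the values behind these tests.

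**Figure D1:**
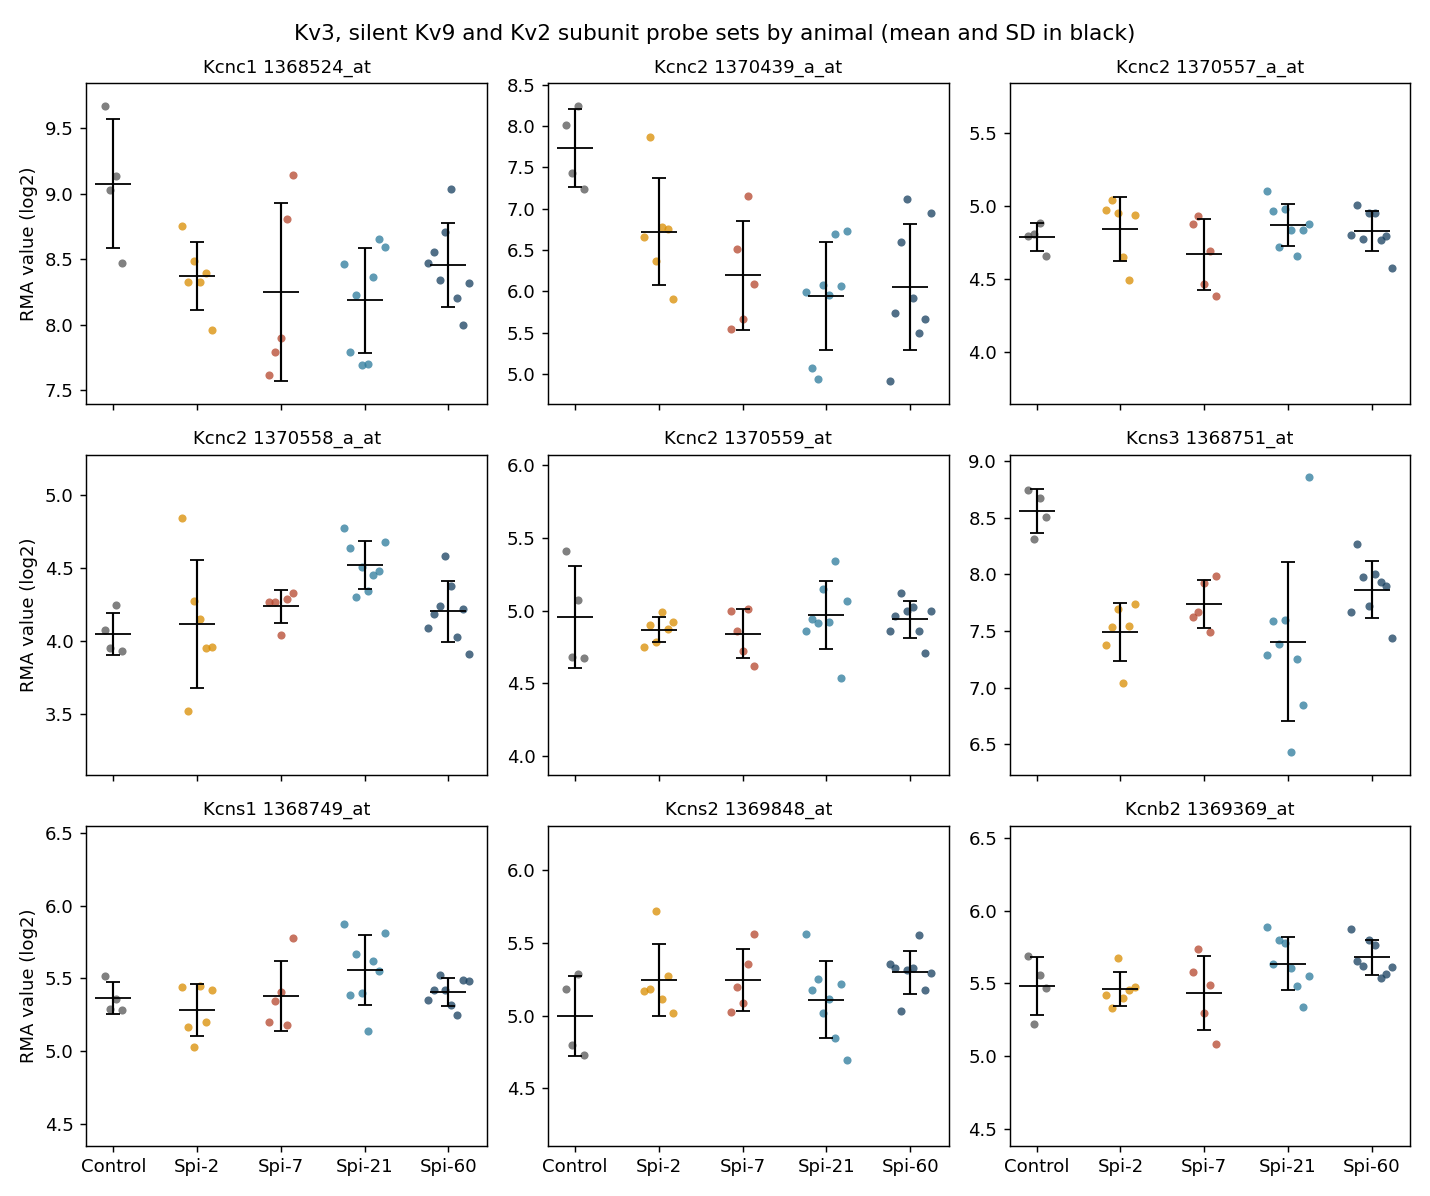
RMA values (log2) of each animal for the 9 probe sets, by group from Control to Spi-60, with the group mean and SD in black. Kcnc1, Kcnc2 1370439_a_at and Kcns3 have their highest group means in Control (9.08, 7.73 and 8.56), and the other 6 probe sets lie between 3.52 and 5.89 throughout.

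Kcnc2, the Kv3.2 subunit, showed the largest fall among the 9 probe sets, on 1 of its 4 probe sets. The 4 Control animals had 8.02, 7.43, 8.24 and 7.24 on 1370439_a_at. The Spi-2 values had a lowest of 5.91, a median of 6.71 and a highest of 7.87, and the Spi-7 animals had 5.54, 6.51, 5.67, 7.15 and 6.09. The Spi-21 values ran from 4.93 over a median of 6.03 to 6.73, and the Spi-60 values from 4.92 over 5.83 to 7.12. All 5 Spi-7, all 8 Spi-21 and all 8 Spi-60 animals thus lay below the lowest Control animal, and 5 of the 6 Spi-2 animals did, with Spi-2 replicate 2 inside the Control range. Here and below, such counts describe the animals only, since the share of all probe sets that separate in this way is not given.

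In the limma contrasts this probe set fell by 1.54 ± 0.42 at day 7 (SE, log2, adjusted p = 0.0386), which is 2.91-fold lower in Spi-7 than in Control. At day 21 it fell by 1.79 ± 0.38 and was 3.46-fold lower (adjusted p = 0.00232). At day 60 it fell by 1.68 ± 0.38 and was 3.21-fold lower (adjusted p = 0.00285). The day 2 difference of -1.01 ± 0.40 did not pass (adjusted p = 0.114), although leaving out Spi-2 replicate 2 gave an adjusted p of 0.0388. The day 7 call is the least firm of these. It was lost when any 1 of Control replicates 1 to 3 or of Spi-7 replicates 1, 2, 3 and 5 was left out, with an adjusted p of up to 0.150 in those fits, and under a further quantile normalization (0.0530). The day 21 value was -1.37 with an adjusted p of 0.0537 when 4 Spi-21 arrays were left out together (those with the higher Gapdh difference defined below). For the mean of Spi-21 and Spi-60 against Control (late), Kcnc2 1370439_a_at fell by 1.74 ± 0.35 (adjusted p = 0.000902) and was called under every one of 39 alternatives.

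On the other 3 Kcnc2 probe sets no contrast passed as a fall, but they lay among the dimmest of the table, at percentiles 0.387 to 8.03, where a fall of the transcript might not be seen. On 1370557_a_at the group means were 4.79 in Control, 4.84 in Spi-2, 4.67 in Spi-7, 4.87 in Spi-21 and 4.83 in Spi-60. On 1370559_at they were 4.96, 4.87, 4.84, 4.97 and 4.94 in the same order. No contrast of these 2 probe sets passed, and their day 21 intervals reached from -0.14 to 0.31 for 1370557_a_at and from -0.24 to 0.26 for 1370559_at (95%, log2). Since no signal was shown to stand above background on them, these intervals bound the change of the signal and not that of the transcript.

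The dimmest of the 4, 1370558_a_at, went the other way at day 21. The 8 Spi-21 animals had a lowest of 4.30, a median of 4.49 and a highest of 4.77, against 4.07, 3.95, 4.24 and 3.93 in the 4 Control animals, so that these groups did not overlap. The difference was 0.47 ± 0.15 (SE, log2, adjusted p = 0.0281, limma), and 5.94% of all probe sets were called higher at day 21. Spi-60 animals had 3.91 to 4.58, of which 2 lay above the highest Control animal, and the day 60 difference was 0.15 ± 0.15 (adjusted p = 0.517). With 1 array left out in turn, the day 21 call was lost without Control replicate 1, 2 or 4 or Spi-21 replicate 1 (adjusted p 0.0513 to 0.0885), and it was also lost without the group of Spi-21 replicates 1 to 4 (0.140) and when the values were quantile normalized once more (0.0541). Its mean lay in the lowest 0.387% of all probe sets.

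The difference between probe sets was itself tested by an exact permutation test over animals (two-sided, 24 tests from 6 pairs and 4 days, p adjusted over the 24). Between 1370439_a_at and each of the other 3, the change against Control differed at days 7, 21 and 60 in all 9 tests. With the other 3 this dim, these tests restate the fall of 1370439_a_at and do not show that the transcripts read by the others changed less. The difference between the changes was -1.73 to -1.42 log2 at day 7 (p = 0.0159, the smallest that 5 against 4 animals allow, adjusted p = 0.0346), -2.26 to -1.80 at day 21 and -1.84 to -1.67 at day 60 (p = 0.00404 each, the smallest that 8 against 4 allow, adjusted p = 0.0139, exact test). At day 2 the same 3 differences were -1.07 to -0.92 log2 with adjusted p between 0.0527 and 0.1 (exact test, 6 against 4 animals). Among the other 3 probe sets 3 of 12 tests passed, each with 1370558_a_at, by -0.39 (1370557_a_at minus 1370558_a_at, Spi-21), 0.30 and 0.46 (1370558_a_at minus 1370559_at, Spi-7 and Spi-21). The probe sets 1370558_a_at and 1370559_at were designed from the same database sequence and the other 2 from 1 sequence each, and no probe sequences were used here, so which Kcnc2 transcripts each reads was not determined.

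**Figure D2:**
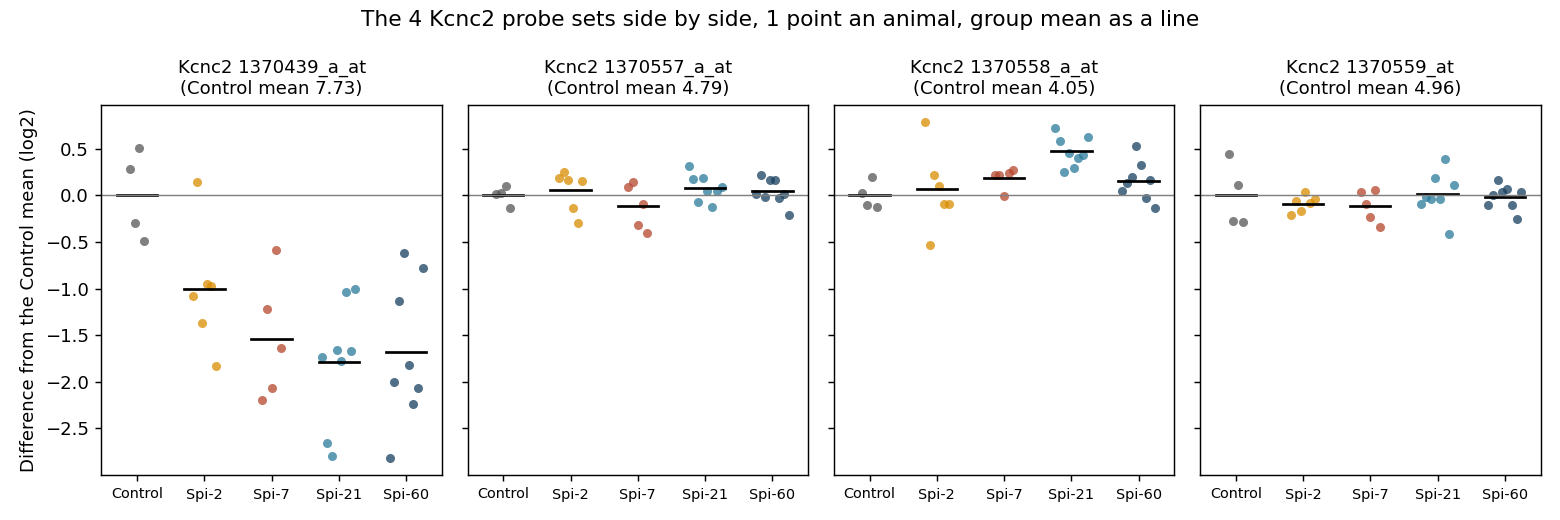
Difference of each animal from the Control mean (log2) on the 4 Kcnc2 probe sets, by group from Control to Spi-60, with a line at each group mean. On 1370439_a_at every animal of Spi-7, Spi-21 and Spi-60 lies below the Control mean of 7.73, while the other 3 probe sets scatter about 0 apart from 1370558_a_at in Spi-21 (mean 0.47 higher).

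Kcnc1, the Kv3.1 subunit of fast-firing neurons, was lower at day 21. Control animals had 9.67, 9.03, 9.14 and 8.47. Spi-2 values had a lowest of 7.96, a median of 8.36 and a highest of 8.75, and the 5 Spi-7 animals had 7.62, 7.80, 7.90, 8.81 and 9.14. Spi-21 values ran from 7.70 over a median of 8.30 to 8.66, and Spi-60 values from 8.00 over 8.41 to 9.04. No group was free of overlap with Control, whose replicate 4 was the low one, and in Spi-7 3 animals lay below all controls and 2 within their range.

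The Kcnc1 contrast was -0.89 ± 0.25 at day 21 (SE, log2, adjusted p = 0.0139, limma), 1.85-fold lower in Spi-21 than in Control, and -0.76 ± 0.22 for the late mean (adjusted p = 0.0161). The values at the other days had the same sign and did not pass, at -0.70 ± 0.26 (day 2, adjusted p = 0.0859), -0.83 ± 0.27 (day 7, adjusted p = 0.0976) and -0.62 ± 0.25 (day 60, adjusted p = 0.0768). Both calls were lost under a further quantile normalization (adjusted p = 0.0586 at day 21 and 0.0727 late) and without Control replicate 1 (0.0798 and 0.119), and the late one also without Control replicate 3 (0.0541). The day 21 call was lost as well without Spi-21 replicates 1 to 4 together (-0.75, adjusted p = 0.122). Without Control replicate 4 the day 2, 7 and 60 differences passed as well (0.0408, 0.0437 and 0.0334, limma), so single controls decided the Kcnc1 calls in both directions.

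Kcns3, the silent Kv9.3 subunit, was lower from day 2 on. Control animals had 8.75, 8.31, 8.68 and 8.51. Spi-2 values had a lowest of 7.04, a median of 7.54 and a highest of 7.74, and Spi-7 animals had 7.62, 7.67, 7.92, 7.49 and 7.98. Spi-21 values ran from 6.43 over a median of 7.33 to 8.86, and Spi-60 values from 7.44 over 7.92 to 8.27. Every animal of Spi-2, Spi-7 and Spi-60 lay below the lowest Control animal, and so did 7 of the 8 Spi-21 animals. The exception was Spi-21 replicate 8, which at 8.86 lay above all controls, while the next highest of that group had 7.60.

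The limma contrast of Kcns3 was -1.07 ± 0.25 at day 2 (SE, log2, adjusted p = 0.00701), 2.10-fold lower in Spi-2 than in Control. At day 21 it was -1.15 ± 0.24 (adjusted p = 0.00203), 2.23-fold lower, and -1.36 with Spi-21 replicate 8 left out. At day 60 it was -0.70 ± 0.24 (adjusted p = 0.0430), 1.62-fold lower. The day 7 difference of -0.82 ± 0.26 did not pass in the fit of all groups (adjusted p = 0.0930). The late mean was -0.93 ± 0.22 (adjusted p = 0.00368). The calls at day 2, at day 21 and for the late mean held under every alternative run, whereas the day 60 call was lost in 14 of 40, among them each of the 4 Control arrays left out in turn and 6 of the 8 Spi-60 arrays (adjusted p 0.0507 to 0.117).

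Within the 15 arrays of the present study, where the earlier arrays play no part, the F-test over Control, Spi-2 and Spi-7 called Kcns3 alone of the 9 (adjusted p = 0.00165, limma, FDR 0.02), against 3.01% of all probe sets. Kcnc2 1370439_a_at had an adjusted p of 0.0421 and Kcnc1 one of 0.180 in that test. Within the 16 arrays of the earlier study, 0 of the 9 probe sets differed between Spi-60 and Spi-21 (limma), where 0.00774% of all probe sets were called lower in Spi-60 and 0% higher. One of the 9 had an unadjusted p under 0.05, Kcnc2 1370558_a_at, with -0.32 ± 0.10 (adjusted p = 0.284). Kcns3 was 0.46 ± 0.23 higher in Spi-60 than in Spi-21 (95% interval -0.03 to 0.95, adjusted p = 0.506), an interval that includes 0.

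Counted by day, 1 of the 9 probe sets was called lower at day 2 (4.98% of all probe sets), 1 at day 7 (1.67%), 3 at day 21 (10.7%), 2 at day 60 (9.89%) and 3 for the late mean (12.4%). Called higher were 0 at day 2 (3.9% of all), 0 at day 7 (0.914%), 1 at day 21 (5.94%), 0 at day 60 (7.2%) and 0 for the late mean (8.07%). All day contrasts share the 4 Control animals. The plot of fold changes sets them side by side, with the 3 genes to the left of 0 and the rest about it.

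**Figure D3:**
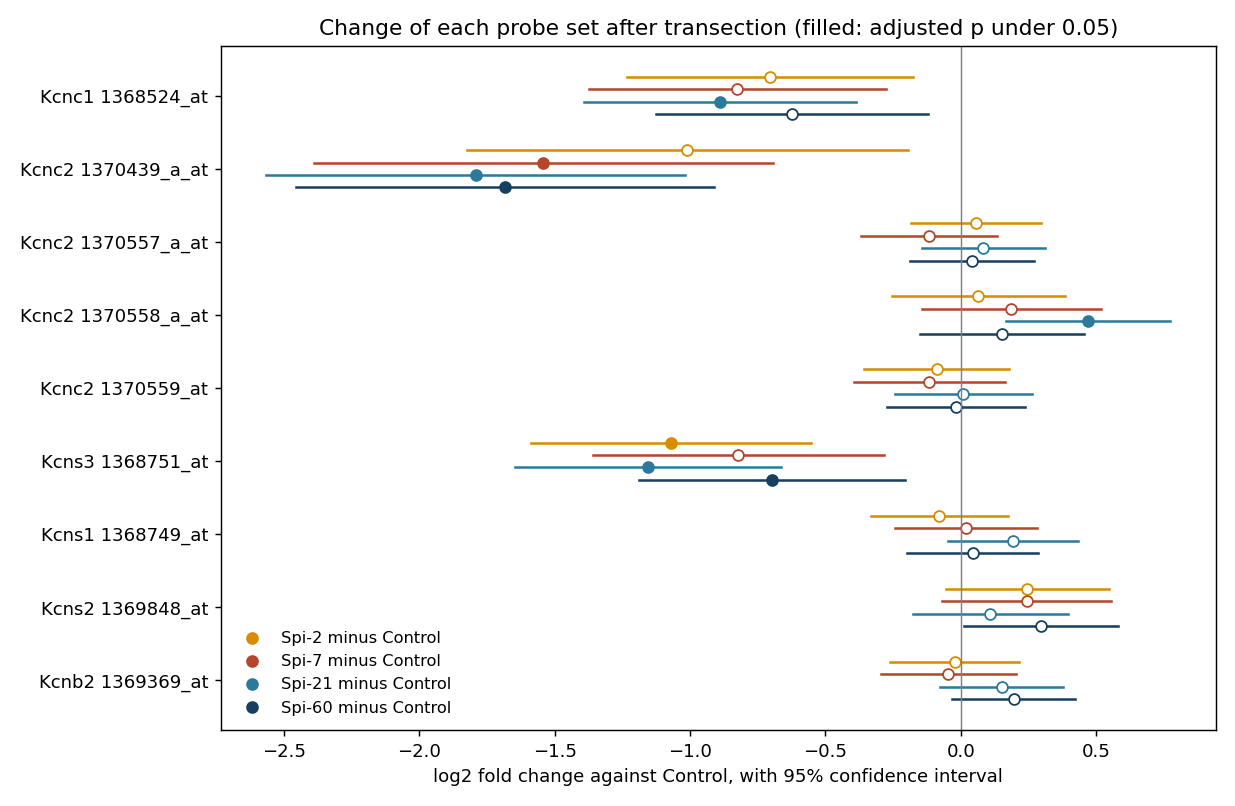
Log2 fold change against Control with its 95% confidence interval for each probe set at days 2, 7, 21 and 60 (limma, all 31 arrays). Filled points passed an adjusted p of 0.05, and the intervals of Kcnc1, Kcnc2 1370439_a_at and Kcns3 lie below 0 on all 4 days.

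Kcns1 and Kcns2, the Kv9.1 and Kv9.2 silent subunits, and Kcnb2, the Kv2.2 pore-forming subunit they can join, did not pass in any contrast. Kcns1 means were 5.36 ± 0.11 in Control, 5.28 ± 0.18 in Spi-2, 5.38 ± 0.24 in Spi-7, 5.56 ± 0.24 in Spi-21 and 5.41 ± 0.10 in Spi-60 (SD). Kcns2 means were 5.00 ± 0.28, 5.24 ± 0.25, 5.24 ± 0.21, 5.11 ± 0.26 and 5.30 ± 0.15, and Kcnb2 means were 5.48 ± 0.20, 5.46 ± 0.12, 5.44 ± 0.25, 5.63 ± 0.18 and 5.68 ± 0.12 in the same order. The largest of their 12 day differences was that of Kcns2 at day 60, 0.30 ± 0.14 (adjusted p = 0.143, limma), with 6 of 8 Spi-60 animals above the highest control. At day 21 the 95% intervals ran from -0.05 to 0.43 (Kcns1), from -0.17 to 0.40 (Kcns2) and from -0.08 to 0.38 (Kcnb2), and, with no signal shown above background on these probe sets, they bound the signal and not the transcript.

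The 3 falling genes did not track each other closely from animal to animal. Over the 31 arrays Pearson's r was 0.56 between Kcnc1 and Kcnc2 1370439_a_at, 0.48 between Kcnc1 and Kcns3 and 0.35 between Kcnc2 1370439_a_at and Kcns3, and with the group means taken away it was 0.35, 0.18 and 0.01. All arrays went through the same amplification and normalization, so these are descriptions with no test. The single-symbol probe sets most like Kcnc2 1370439_a_at were those of Car2, carbonic anhydrase 2 (r = 0.88, within groups 0.79), Ptgr2, a prostaglandin reductase (0.84, 0.78), and Vsnl1, the neuronal calcium sensor visinin-like 1 (0.83, 0.71). Those most like Kcns3 were Aqp11, an aquaporin (0.73, 0.57), Abcd2, a peroxisomal fatty acid transporter (0.70, 0.44), and Fem1c, a ubiquitin ligase adaptor (0.70, 0.56). All 6 were lower late, with log2 fold changes between -2.57 (Vsnl1) and -0.52 (Aqp11).

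Markers of motor neurons and of other cells are given beside the falling genes, and their direction and r differed by cell type and by gene. The late counts of these lists stand against 12.4% of all probe sets called lower late and 8.07% called higher. The motor neuron list, with 6 of its 9 genes measured, had a mean log2 level of 9.73 to 10.6 over the injured groups, against 10.1 to 10.6 in Control, and late 1 of its 7 probe sets was lower and 2 were higher. The lower one was Slc5a7, the choline transporter of cholinergic terminals, which fell by 1.09 ± 0.26 late (SE, log2, adjusted p = 0.00436, limma) and by 1.18 ± 0.30 at day 2 (adjusted p = 0.0128). Its r with Kcnc2 1370439_a_at was 0.64 over the 31 arrays and 0.50 within groups, and with Kcns3 it was 0.41 and 0.03. The higher ones were Prph at 0.79 ± 0.16 late (adjusted p = 0.00132, limma) and Ret 1388208_a_at at 0.50 ± 0.14 (adjusted p = 0.0104). The r of Prph was -0.72 with Kcnc1 (within groups -0.62) and -0.59 with Kcnc2 1370439_a_at (within groups -0.24). Within groups the motor neuron list had r = -0.56 with Kcnc1, 0.24 with Kcnc2 1370439_a_at and 0.15 with Kcns3. Of the inhibitory interneuron list 7 of 8 genes were measured, and their mean level was 5.94 to 6.94 in Control, 5.79 to 6.45 in Spi-2 and 5.59 to 6.45 in Spi-7. In Spi-21 it was 5.64 to 6.15, and Spi-60 had 5.78 to 6.31. Late, 2 of its 8 probe sets were lower, Gad1 1368344_at (a GABA-synthesising enzyme) at -2.29 ± 0.54 (SE, log2, adjusted p = 0.00363) and Slc32a1 (the vesicular GABA and glycine transporter) at -1.70 ± 0.36 (adjusted p = 0.00149), while the second Gad1 probe set was at 0.18 ± 0.09 (adjusted p = 0.129) and Gad2 and Slc6a5 lay between 4.42 and 6.00 in all groups. Pvalb (parvalbumin) was lower at day 21, at -0.34 ± 0.11 (adjusted p = 0.0251, limma), and did not pass late, at -0.25 ± 0.10 (adjusted p = 0.0644). Its r over the 31 arrays and within groups was 0.49 and 0.26 with Kcnc1, and 0.41 and 0.28 with Kcnc2 1370439_a_at. Of the excitatory interneuron list, 2 of 3 genes measured, Slc17a6 (a vesicular glutamate transporter) fell by 1.82 ± 0.38 late (adjusted p = 0.00136), and Tac1 (the substance P precursor) was at -0.08 ± 0.12 (adjusted p = 0.659). The list's mean level was 6.24 to 7.37 in Control, 5.77 to 6.67 in Spi-2 and 5.71 to 6.79 in Spi-7, and it was 5.59 to 6.51 in Spi-21 with Spi-60 at 5.60 to 6.80. RMA summaries have no zero, so none of these markers could be called absent.

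Slc32a1 followed Kcnc2 1370439_a_at with r = 0.68 over the 31 arrays and 0.44 within groups, and Slc17a6 with 0.66 and 0.43. With Kcnc1 the values were 0.58 and 0.34 for Slc32a1 and 0.29 and -0.08 for Slc17a6, and with Kcns3 they were 0.54 and 0.25 for Slc32a1 and 0.36 and -0.04 for Slc17a6. The oligodendrocyte list (6 of 7 genes measured) had a mean level of 8.32 to 9.15 in Control, 8.10 to 8.57 in Spi-2 and 7.89 to 8.89 in Spi-7. Spi-21 had 7.81 to 8.58 and Spi-60 had 8.12 to 9.01. Late, 3 of its 10 probe sets were lower and 0 higher. Its r within groups was 0.53 with Kcnc2 1370439_a_at, 0.45 with Kcnc1 and -0.23 with Kcns3. The lower ones were Mbp 1368810_a_at (-0.999, log2), Cldn11 1376711_at (-0.94) and Mog (-0.85), while the other Mbp and Cldn11 probe sets did not pass late. With Kcnc2 1370439_a_at, r over the 31 arrays and within groups was 0.75 and 0.62 for Cldn11 1376711_at. It was 0.72 and 0.56 for Mog, and 0.37 and 0.44 for Mbp 1368810_a_at. Both values of Cldn11 1376711_at and Mog were above those of Slc32a1 and Slc17a6, and the first of Mbp was below them. The microglia list (7 of 8 genes) was at 5.57 to 5.87 in Control and at 6.55 to 7.60 in Spi-2 and 6.03 to 7.26 in Spi-7, while Spi-21 had 5.51 to 7.58 and Spi-60 had 5.92 to 7.63, and late 2 of its 7 probe sets were higher and 0 lower. The astrocyte list (6 of 7 genes) had a mean level of 7.75 to 8.64 in Control, 8.37 to 8.63 in Spi-2 and 8.00 to 8.73 in Spi-7. Spi-21 animals had 7.71 to 8.75, and those of Spi-60 had 8.19 to 9.08. Late, 1 of its 8 probe sets was higher and 1 lower. Gfap, the filament protein of reactive astrocytes, was higher by 2.45 ± 0.42 at day 2 (SE, log2, adjusted p = 0.000461, limma) and by 1.58 ± 0.36 late (adjusted p = 0.00276). Slc1a3 1368565_at (a glial glutamate transporter) was at -0.87 ± 0.28 late (adjusted p = 0.0266), while its second probe set was at 0.07 ± 0.11 (adjusted p = 0.677). Within groups the astrocyte list had r = 0.51 with Kcnc2 1370439_a_at, 0.38 with Kcnc1 and -0.37 with Kcns3. For Slc1a3 1368565_at, r with Kcnc2 1370439_a_at was 0.65 over the 31 arrays and 0.54 within groups. Gja1 1372002_at had 0.61 and 0.54, and Gfap had -0.19 and 0.13. Of the endothelium list 1 of 4 genes was measured, and 0 of its 2 probe sets were called late. The part of other cells in the Kcnc1, Kcnc2 and Kcns3 results was not tested, and less RNA per motor neuron and fewer cells of another type in the sample cannot be told apart in these bulk samples.

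**Figure D4:**
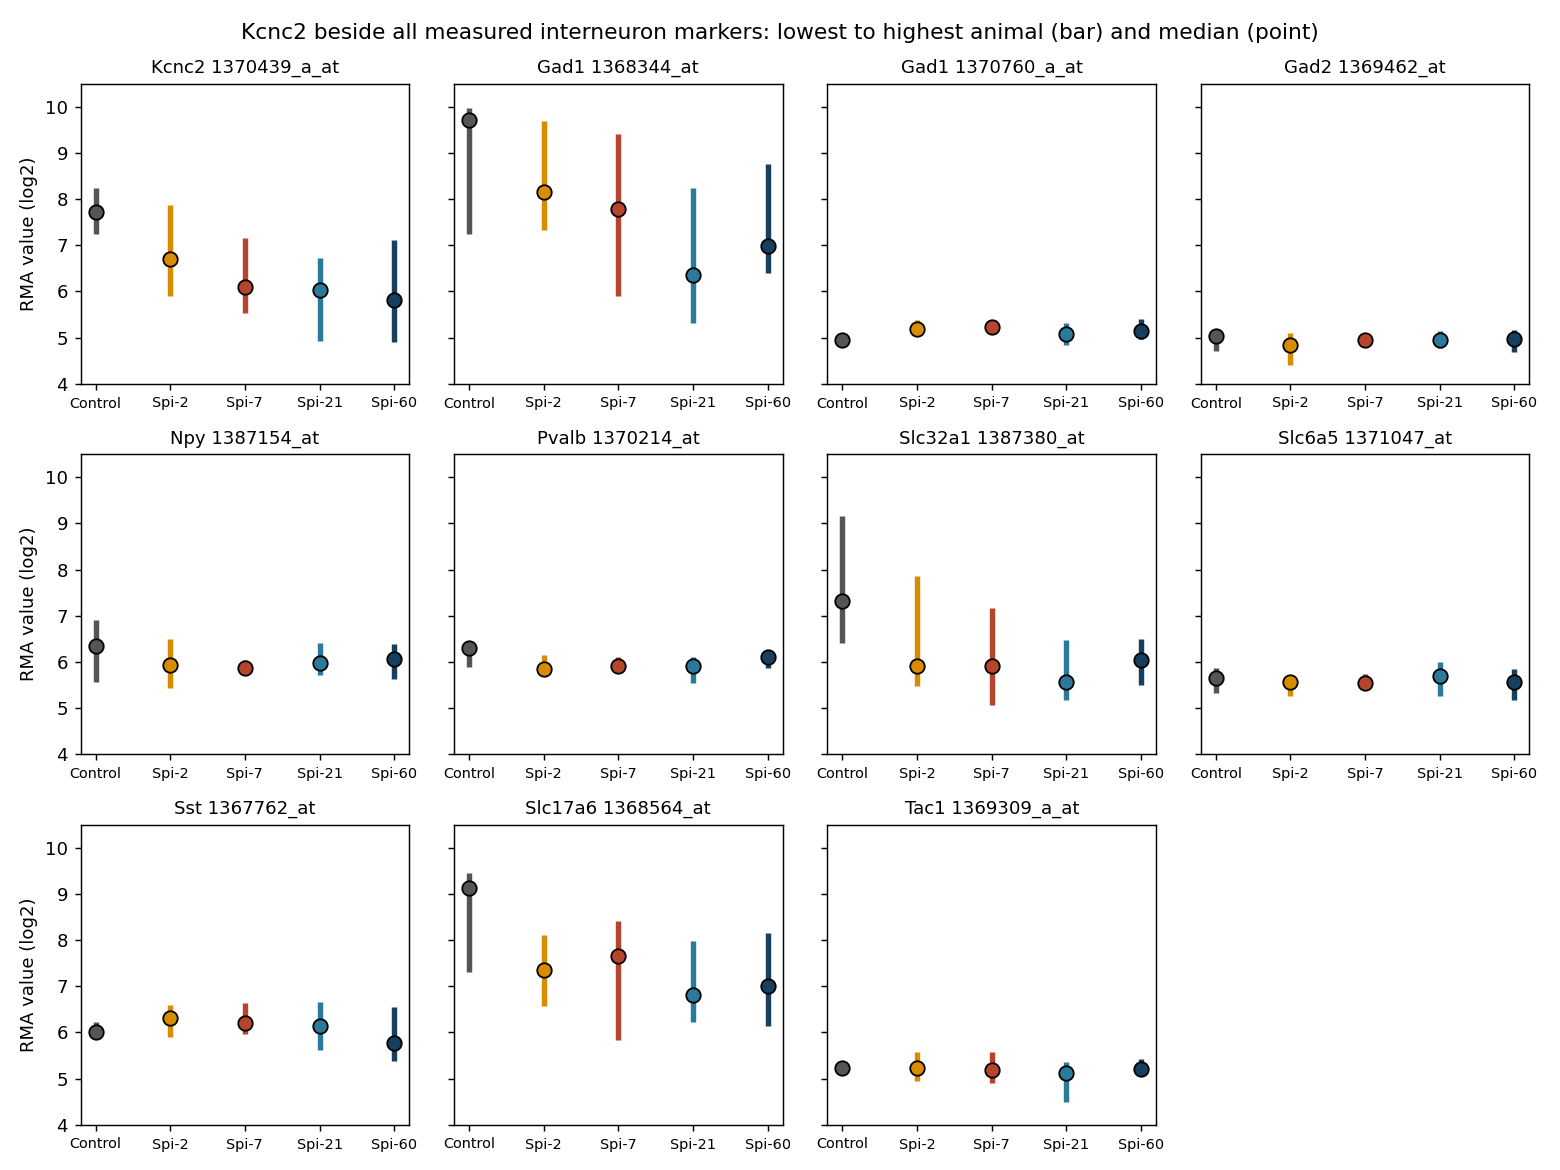
Kcnc2 1370439_a_at beside every measured probe set of the inhibitory and excitatory interneuron lists, as the lowest to highest animal (bar) and the median (point) of the RMA value (log2) in each group from Control to Spi-60. Gad1 1368344_at, Slc32a1 and Slc17a6 were lower late and have Control medians of 9.72, 7.33 and 9.14. Gad1 1370760_a_at has its lowest median in Control (4.96). The other 6 markers did not pass late (differences -0.26 to -0.01), but Pvalb was called lower at day 21 (-0.34, adjusted p = 0.0251, limma).

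The Gapdh 3′ to 5′ difference also varied between groups, and no RNA integrity values were used here. The difference between the 3′ and 5′ control probe sets of Gapdh, which grows as transcripts are read from shorter 3′ ends, was 2.01 ± 0.33 in Control, 2.82 ± 0.36 in Spi-2, 3.01 ± 0.37 in Spi-7, 2.29 ± 0.94 in Spi-21 and 3.49 ± 0.35 in Spi-60 (SD, log2). In Spi-21, replicates 5 to 8 lay below every control (1.13 to 1.66, against at least 1.80) and replicates 1 to 4 above (2.76 to 3.54). With this difference as a covariate the day 7 call of Kcnc2 1370439_a_at (-1.25, adjusted p = 0.179), the late call of Kcnc1 (-0.67, adjusted p = 0.0948), the day 60 call of Kcnc2 1370439_a_at (-1.25, adjusted p = 0.162) and the day 60 call of Kcns3 (-0.63, adjusted p = 0.300) were lost, with the late calls of Kcnc2 1370439_a_at and Kcns3 kept. Kcns3 was still called at day 21 without Spi-21 replicates 5 to 8 (-1.10) and without replicates 1 to 4 (-1.21). The day 21 calls of Kcnc1, Kcnc2 1370558_a_at and Kcnc2 1370439_a_at (-1.37, adjusted p = 0.0537, limma) were lost without replicates 1 to 4.

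Of the other Kv2, Kv3 and silent genes, 3 of a list of 10 were measured, Kcng2, Kcng3 and Kcnv1, all silent subunits, and 0 were called in any test. Their late differences were 0.09 ± 0.08, 0.15 ± 0.10 and -0.17 ± 0.12 (SE, log2, adjusted p 0.312 to 0.459, limma). Of a list of 15 partner proteins of Kv2 and Kv3 channels, 9 genes were measured with 14 probe sets. Of these probe sets 2 passed the F-test, against 16.2% of all probe sets. Ank3 1370638_at (ankyrin G, which anchors channels at the axon initial segment) was -0.83 ± 0.20 at day 60 (adjusted p = 0.00421), and Kcne2 1386770_x_at (an accessory subunit) was -0.57 ± 0.14 at day 60 (adjusted p = 0.00689). Neither gene's second probe set passed the F-test (adjusted p 0.107 for Ank3 1371132_a_at and 0.529 for Kcne2 1369322_at).

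Of 24 other Kv alpha subunits 18 were measured and 4 passed the F-test, beside 2 of the 9 members and 16.2% of all probe sets. Kcna4 (Kv1.4, an inactivating channel) was lower late, at -0.80 ± 0.15 (adjusted p = 0.000591, limma). Kcna1 (Kv1.1, an axonal channel) was lower early, at -1.05 ± 0.19 on day 2 (adjusted p = 0.000756) and -0.82 ± 0.20 on day 7 (adjusted p = 0.0215), and at -0.35 ± 0.17 late (adjusted p = 0.135). Kcnq5 (an M-current subunit) was higher late, at 0.49 ± 0.12 (adjusted p = 0.00363). Kcnh2 (the ERG channel) passed the F-test (adjusted p = 0.000515) with no contrast against Control that did. Among the members and these 3 lists, Kcns3 and Kcna1 were the probe sets called lower at day 2.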

How the data were processed

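The authors discarded probe sets outside the Ensembl annotation of the array, background compensated and normalized the probe intensities, and deposited RMA summaries on the log2 scale, to which their methods applied a second background compensation and a legend a second quantile normalization. The deposited columns do not share 1 distribution, since their medians run from 5.95 to 6.10 and their interquartile ranges from 1.74 to 2.05 (the submitters' processing notes name RMA, and its version is not given in the sources used here). Background compensation of the summaries can change differences of dim probe sets. All 31 columns were mapped to animals by their titles, and 0 columns of per-sample values were left unmapped. Of 12919 probe sets, 6 Affymetrix controls were left out. A linear model with 1 mean per group was fitted to the other 12913 with limma 3.58.1 in R 4.3.3, with Benjamini-Hochberg adjustment over all of them, an FDR of 0.02 for F-tests and an adjusted p of 0.05 (two-sided) for contrasts. Late is the mean of Spi-21 and Spi-60. Kcnc2 probe sets were compared by exact permutation over animals. Replicates 1 to 8 are separate animals, and equal numbers do not pair them. The script was checked on simulated data. The ± after a fold change is its SE and after a mean its SD. Depth has no counterpart on arrays, so the number of animals limits the precision.

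The members and the lists of relatives, partners, other Kv genes and cell markers were chosen with earlier results of these data known, and the study itself singled out Kcnc1, Kcnc2 and Kcns3 on these arrays, so none of the lists is independent evidence. All member probe sets are named, as are genes of the other lists that passed the F-test and the 3 probe sets most like each member that passed it. Markers of other cells were named after their values were seen.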

Additional observations from a re-analysis of the deposited data

Results flagged for a closer look

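Among the 45 groups of animals (9 probe sets, 5 groups each) 2 held an animal far from the rest by Dixon's test, which chance alone gives in about 1 of 20 groups. On Kcnc2 1370558_a_at, Spi-7 replicate 3 was the lowest of its group at 4.04, where the other 4 Spi-7 animals had 4.27 to 4.33. On Kcns2, Spi-2 replicate 3 was the highest of its group at 5.72, where the other 5 Spi-2 animals had 5.02 to 5.27. Neither probe set passed a contrast at that day, and leaving out either animal gave no such call.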

How the results depend on the processing

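The counts of called member probe sets were recomputed under 10 other settings (leaving out Spi-21 replicates 1 to 4 or 5 to 8 together was chosen after seeing the data) and with each of the 31 arrays left out. Leaving out 1 array gave 0 to 3 called by the F-test over the 5 groups (2 with all arrays), 1 to 2 at day 2 (1), 0 to 2 at day 7 (1), 2 to 4 at day 21 (4), 1 to 3 at day 60 (2), 2 to 4 late (3), 1 to 2 by the F-test within the present study (1), 0 throughout for day 60 against day 21 (0) and 7 to 16 of the 24 tests of Kcnc2 pairs (12). Both F-test calls were lost without Control replicate 1 (adjusted p 0.0226 and 0.0255) and without Control replicate 3 (0.0282 and 0.0243). The day 7 tests of 1370439_a_at were lost without any 1 control. With fewer controls the smallest p that the exact test allows is larger, so this loss cannot show how firm the difference is. A further quantile normalization gave 0 at day 7, 2 at day 21 and 1 at day 60, and array weights gave 3 at day 2, 3 at day 7 and 3 within the present study. The Gapdh covariate gave 0 at day 7 and 0 at day 60, and a fit of only the 2 groups gave 2 at day 7. Leaving out Spi-21 replicates 5 to 8 together gave 2 at day 7, and leaving out Spi-21 replicates 1 to 4 together gave 1 at day 21 and 1 at day 60. A trended prior variance and a filter that dropped the dimmest 0.25 of all probe sets, 4 of the members among them, changed no call of the members kept, and limma on the differences of Kcnc2 probe sets called 8 of 24. The cause of these shifts was not tested. No called value changed sign, and 54 of 1666 uncalled ones did.

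A block on the replicate number gave counts of 0 at day 7 (Kcnc2 1370439_a_at, adjusted p = 0.0579) and 1 at day 60 (Kcns3, adjusted p = 0.0523), and no other member call changed. Over 51 pairs of equal number, the correlation of deviations ran from -0.33 to 0.35, with 11 over 0.1 and 9 of the 51 best matched by their own number, so the number pairs no animals.

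Over all probe sets, array weights called 4082 by the F-test (2098 in the fit without weights), 2275 at day 2 (1146), 1530 at day 7 (334) and 1060 within the present study (389). The Gapdh covariate called 190 at day 7, 267 at day 60 (2207) and 1216 late (2643), the block 25 within the present study, only 2 groups 524 at day 7 and 1364 at day 21 (2148). Leaving out Spi-21 replicates 5 to 8 gave 3295 at day 21, and leaving out replicates 1 to 4 gave 523 at day 7, 631 at day 21 and 307 for day 60 against day 21 (1), where the other settings with all arrays gave 0 to 4. Leaving out 1 array gave 675 to 1389 at day 2, 147 to 378 at day 7, 1197 to 2415 at day 21, 1420 to 2411 at day 60, 1654 to 2859 late, 103 to 582 within the present study and 0 to 11 for day 60 against day 21.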
